A study of Homo sapiens with 9 samples.

Results

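The SR proteins (SRSF genes) and the heterogeneous nuclear ribonucleoproteins (HNRNP genes) were followed in BxPC3, an established human pancreatic ductal adenocarcinoma line. Members were the rows whose symbol was SRSF plus a number or HNRNP plus letters and numbers, without the 124 pseudogene rows whose symbol ended in P and a number. This gave 37 of 60564 rows, 12 SRSF and 25 HNRNP. RNA-seq covered 3 groups of 3 libraries, namely vehicle controls, cells given an siRNA (a short duplex that degrades matching transcripts) directed at the transcription factor gene STAT3, and cells exposed to 0.1 µM WB436B, a compound known here by its code name. All groups were this 1 line in the same serum-containing medium. The labels state neither the vehicle nor the length of treatment, and no non-targeting siRNA is named, so transfection and STAT3 loss cannot be told apart.

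SR proteins carry an RNA recognition motif and a tail rich in arginine and serine. Many of them bind exonic enhancers and promote the use of nearby splice sites, and kinases of the SRPK and CLK families control them by phosphorylating that tail. Most hnRNP proteins coat nascent transcripts through RNA recognition or KH domains. Several hnRNP proteins, hnRNP A1 above all, silence splice sites that SR proteins such as SRSF1 favour. Many genes of both families regulate their own transcripts through poison exons that lead to nonsense-mediated decay, which a value per gene, as used here, does not resolve.

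Promoter sequences are shown first, to give the regulatory DNA beside the values that follow. They belong to 4 of the members called higher in all 3 comparisons below (HNRNPAB, HNRNPM, HNRNPH3 and, with an unstable siRNA call, SRSF7). HNRNPL and SRSF3 were also called higher in all 3, likewise with unstable siRNA calls, and their sequences are not shown. Another sequence belongs to SRSF5, the member called lower under both treatments. The sequences are the 250 bases before the RefSeq transcript start (GRCh38.p14), 5′ to 3′ on the gene's own strand. Capitals mark matches, on either strand, to the E-box CACGTG, the CCAAT box, the GC box GGGCGG, the ETS site CCGGAAG and the STAT site TTCNNNGAA.
HNRNPAB (chr5:178204283-178204532, plus strand): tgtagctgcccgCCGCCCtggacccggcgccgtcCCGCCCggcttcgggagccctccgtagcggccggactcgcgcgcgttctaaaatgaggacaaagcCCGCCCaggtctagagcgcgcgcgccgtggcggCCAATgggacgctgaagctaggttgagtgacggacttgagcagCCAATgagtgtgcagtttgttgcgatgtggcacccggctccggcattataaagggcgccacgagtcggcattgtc
HNRNPM (chr19:8444725-8444974, plus strand): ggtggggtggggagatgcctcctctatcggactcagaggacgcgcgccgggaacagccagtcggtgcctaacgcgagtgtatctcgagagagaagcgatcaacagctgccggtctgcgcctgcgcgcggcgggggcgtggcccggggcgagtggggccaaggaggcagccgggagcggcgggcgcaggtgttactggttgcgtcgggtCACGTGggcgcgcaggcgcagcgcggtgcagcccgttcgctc
HNRNPH3 (chr10:68331443-68331692, plus strand): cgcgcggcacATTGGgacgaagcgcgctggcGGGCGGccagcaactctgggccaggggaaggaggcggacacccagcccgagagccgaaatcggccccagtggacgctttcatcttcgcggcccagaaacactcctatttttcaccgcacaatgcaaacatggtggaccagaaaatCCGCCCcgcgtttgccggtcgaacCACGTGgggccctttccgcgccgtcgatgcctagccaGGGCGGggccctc
SRSF7 (chr2:38751495-38751744, minus strand): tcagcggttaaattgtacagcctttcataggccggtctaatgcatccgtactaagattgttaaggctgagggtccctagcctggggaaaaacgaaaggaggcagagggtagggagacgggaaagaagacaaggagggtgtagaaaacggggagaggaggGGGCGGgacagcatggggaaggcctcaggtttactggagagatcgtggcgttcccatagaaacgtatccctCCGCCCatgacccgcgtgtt
SRSF5 (chr14:69766892-69767141, plus strand): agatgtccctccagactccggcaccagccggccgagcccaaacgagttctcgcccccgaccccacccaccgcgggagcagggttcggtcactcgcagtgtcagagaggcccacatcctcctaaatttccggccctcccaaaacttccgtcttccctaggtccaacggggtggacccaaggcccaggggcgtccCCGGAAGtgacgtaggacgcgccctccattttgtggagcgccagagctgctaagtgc

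Of the 32 members tested below, 30 had a promoter in the RefSeq table. The E-box, to which MYC-MAX dimers bind, occurred in 6 of 20 HNRNP promoters (HNRNPA3, HNRNPD, HNRNPDL, HNRNPH2, HNRNPH3 and HNRNPM) and in 0 of 10 SRSF promoters. It occurred in 6.49% of all 27305 promoters of this length and in 9.06% of the 8639 promoters matched to tested genes. CCAAT boxes were found in 13 of 20 HNRNP and 2 of 10 SRSF promoters (33.0% of all promoters, 35.4% of those of tested genes), and GC boxes in 16 and 3 (42.3% and 68.1%). The ETS site stood in 3 HNRNP and 2 SRSF promoters (8.82% and 17.4%), and the STAT site in 1 promoter, that of HNRNPR (6.78% and 5.57%). The motifs were chosen with the results known, no binding was measured, and a match is a description of letters in this window.

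Values were deposited as FPKM, fragments scaled by transcript length and by the number of mapped fragments. Estimated depth was 14700000 to 47700000 fragments per library, deepest in vehicle 1. STAT3 was 16.4, 15.8 and 15.1 FPKM under vehicle, 2.98, 2.58 and 3.02 FPKM after the siRNA, and 10.5, 10.9 and 10.8 FPKM under WB436B. All 7 ductal epithelial markers were at least 1 FPKM in every library, but their means differed between groups. KRT19 (710, 503 and 334 FPKM under vehicle, siRNA and WB436B) and MUC1 (8.18, 1.64 and 1.80 FPKM) were highest under vehicle. The others had their lowest mean under vehicle, such as KRT7 at 251, 295.5 and 436 FPKM. The 4 leukocyte markers summed to 2.86 to 6.10 FPKM, mostly CD68, with PTPRC at most 0.0193 FPKM. Endothelial markers summed to at most 1.05 FPKM and acinar and islet markers to at most 0.0351 FPKM, with CELA3A, INS and GCG at 0. The 4 fibroblast markers summed to 1.805 to 2.02 FPKM under vehicle, 3.38 to 3.65 after the siRNA and 0.721 to 0.850 under WB436B. Of these COL1A1 averaged 1.715, 2.28 and 0.7255 FPKM and COL3A1 0.171, 1.22 and 0.0663 FPKM in the same order of groups. COL1A2 and DCN were at most 0.00485 and 0.0268 FPKM. The part of this list in the results was not tested. In bulk RNA, fewer cells with a transcript and less of it per cell cannot be told apart.

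A member was tested if it reached 1 FPKM in at least 3 of the 9 libraries, which 11 SRSF and 21 HNRNP members did. The other 5, SRSF12, a relative of SRSF10, and the HNRNPC copies HNRNPCL1, HNRNPCL2, HNRNPCL3 and HNRNPCL4, never exceeded 0.0491 FPKM. Fold changes are on the scale of log2(FPKM + 1), and the limma fit covered all 12747 tested genes. Changes counted as called when the p-value, after Benjamini-Hochberg adjustment over those genes, was below 0.05.

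Under vehicle the HNRNP members were the more abundant on this length-scaled measure. Their means ran from 4.20 FPKM (HNRNPLL) to 222 FPKM (HNRNPA1) with a median of 48.7 FPKM, while the SRSF means ran from 8.24 (SRSF8) to 44.3 FPKM (SRSF6) with a median of 16.4 FPKM. A total of 11 HNRNP members had a vehicle mean above every SRSF member. Among them HNRNPH2 (5.48 FPKM) and HNRNPC (39.75 FPKM) lay below SRSF6 (44.3 FPKM) in vehicle 2. HNRNPA1 alone held 18.3% of the summed HNRNP level, followed by HNRNPA2B1 at 130 ± 3.10 FPKM (SD, n = 3), its relative among the A/B proteins, and by the KH-domain protein gene HNRNPK at 122 ± 3.63 FPKM. Below HNRNPK came HNRNPAB (79.2 ± 1.04), HNRNPUL1 (76.3 ± 2.15), HNRNPUL2 (74.6 ± 2.06) and HNRNPF (74.5 ± 1.42 FPKM). The order of these 4 is only partly resolved, since libraries of neighbours overlapped. All vehicle libraries of HNRNPAB (77.96 FPKM or more) lay above those of HNRNPUL2 (at most 76.81) and HNRNPF (at most 75.96 FPKM).

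**Figure D1:**
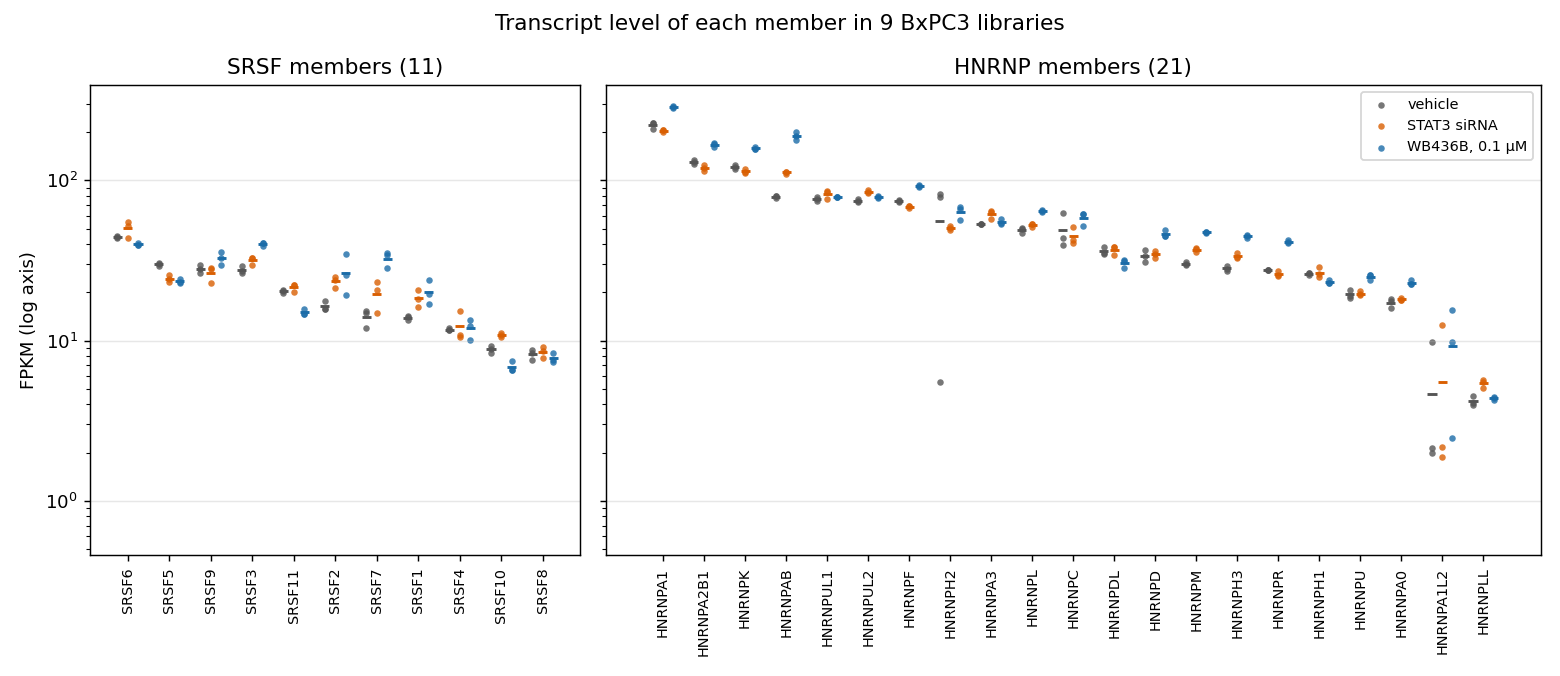
FPKM on a log axis of the 11 SRSF and 21 HNRNP members that were tested, ordered by their vehicle mean, with a point per library and a line at each group mean. The WB436B points lie above the others for HNRNPA1, HNRNPAB and SRSF7 and below them for SRSF11, and HNRNPH2 has 1 vehicle point at 5.48 FPKM.

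Libraries of a group were close for most members, with a median coefficient of variation of 3.94% over members and groups. It exceeded 20% in at least 1 group for 6 members. SRSF7 (21.7% after the siRNA), SRSF4 (22.2% after the siRNA), SRSF2 (29% under WB436B) and HNRNPC (24.9% under vehicle) passed this mark moderately. HNRNPA1L2, an intronless copy of HNRNPA1, was 9.84, 1.97 and 2.12 FPKM under vehicle, 1.87, 2.18 and 12.45 after the siRNA and 2.455, 15.5 and 9.74 under WB436B. High and low libraries occurred in every group of this copy, so no direction can be read from it. Its parent HNRNPA1 also has expressed pseudogenes, of which HNRNPA1P7 was listed at 69.8 to 109 FPKM, so fragments of near-identical copies may have been divided between rows and these values are uncertain.

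HNRNPH2, one of the G-tract binding F/H proteins, was 78.9, 5.48 and 81.9 FPKM under vehicle. In the library with 5.48 FPKM the readthrough model RPL36A-HNRNPH2, which shares 16.3% of the annotated exon bases of HNRNPH2, was listed at 43.4 FPKM, against 0.254 and 0 FPKM in the other vehicle libraries and at most 1.74 FPKM elsewhere. The siRNA libraries held 50.5, 48.8 and 52.15 FPKM of HNRNPH2 and the WB436B libraries 56.7, 67.7 and 66.0 FPKM. Both treated groups thus lay between the extremes of vehicle. The fold change after the siRNA was 0.56 (adjusted p = 0.612), and without vehicle 2 it was -0.66 (adjusted p = 0.0005). Under WB436B it was 0.88 (adjusted p = 0.386), and without vehicle 2 it was -0.34 (adjusted p = 0.00711). With the readthrough row added to HNRNPH2 the values were -0.41 (adjusted p = 0.0815) and -0.09 (adjusted p = 0.677). A direction for HNRNPH2 against vehicle therefore hung on that 1 library. Between the treatments, every WB436B library of HNRNPH2 lay above every siRNA library, without a call (0.32, SE 0.8462, adjusted p = 0.752). This difference stayed at 0.27 to 0.4 on leaving out a library. It was called higher once vehicle 2 was dropped (adjusted p = 0.00513) or the whole vehicle group was kept out of the model (adjusted p = 0.00865).

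**Figure D2:**
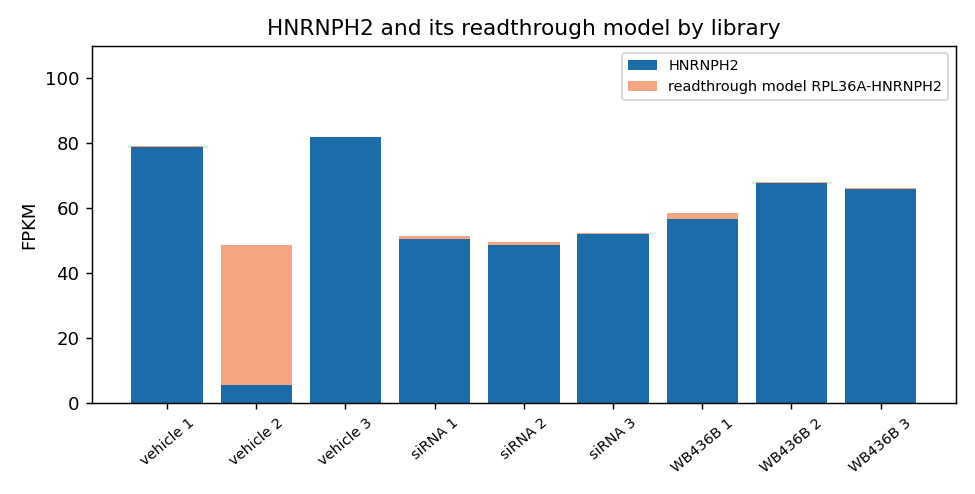
FPKM of HNRNPH2 (blue) and of the readthrough model RPL36A-HNRNPH2 (orange) in each of the 9 libraries, as stacked bars. Vehicle 2 has 5.48 FPKM of HNRNPH2 under 43.4 FPKM of the readthrough model, which is at most 1.74 FPKM in the other 8 libraries.

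Setting WB436B against vehicle shows how these groups differed. HNRNP genes were mostly higher, led by HNRNPAB, HNRNPH3, HNRNPM and HNRNPR, while SRSF genes went both ways, with SRSF7, SRSF2, SRSF3 and SRSF1 higher and SRSF11, SRSF5 and SRSF10 lower. In counts, 12 of 21 HNRNP members rose and 2 fell (57.1% and 9.52%), and 4 of 11 SRSF members rose and 3 fell (36.4% and 27.3%). Over all tested genes 65.9% were called, 24.9% higher and 41.1% lower. The median fold change was 0.37 for HNRNP and 0.02 for SRSF members, against -0.13 for all tested genes. Whether the families differ was not tested, since their members were chosen with results in view. After median-of-ratios scaling, which moved the median of all genes from -0.13 to about 0, 17 HNRNP members were higher and 0 lower, with 5 and 3 for SRSF. With the same scaling 33.1% of all tested genes were higher and 33.2% lower, and the upward share of all calls moved from 37.7% to 49.9%. Quantile normalization gave medians of 0.24 for HNRNP, 0.01 for SRSF and 0.03 for all genes, with 32.4% of all genes higher and 28.7% lower. Among the 7042 genes that passed a filter of 5 FPKM, as all 32 members did, 34.8% were higher and 34.2% lower, with a median of 0.02, so the background moved closer to the HNRNP share under both settings.

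HNRNPAB, an A/B-type protein, had the largest fold change among the members called in this comparison. It was 79.6, 78.0 and 79.9 FPKM under vehicle and 201, 189 and 180 FPKM with the compound (log2 fold change 1.25, SE 0.0460, adjusted p = 1.7e-07). Every treated library held more than every vehicle library, and HNRNPAB moved from rank 4 to rank 2 among the members by mean FPKM. HNRNPM was 29.8, 30.2 and 30.7 FPKM under vehicle and 47.4, 47.5 and 47.2 FPKM under the compound (0.63, SE 0.0353, adjusted p = 1.19e-06). For HNRNPR, a close relative of SYNCRIP, the libraries held 27.7, 27.7 and 27.7 FPKM against 40.7, 42.2 and 41.5 FPKM (0.56, adjusted p = 4.02e-06). HNRNPH3, of the F/H type, went from 27.15, 28.1 and 29.4 to 45.6, 44.9 and 43.8 FPKM (0.65, adjusted p = 4.07e-06). The groups of these genes did not overlap, as was the case for 70.1% of all tested genes.

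The abundant silencers rose by smaller factors. HNRNPA1 stood at 129% of its vehicle mean (0.37, adjusted p = 0.000122), HNRNPA2B1 at 128% (0.36, adjusted p = 0.000101) and HNRNPK, which binds C-rich RNA, at 130% (0.38, adjusted p = 4.03e-05). HNRNPL, which binds CA repeats, rose by 0.39, HNRNPF by 0.31 and HNRNPU, a chromatin-associated member, by 0.35. HNRNPD, also called AUF1 and known for binding AU-rich elements, rose by 0.45, and HNRNPA0 by 0.39. The 2 members that fell were HNRNPDL (36.05 ± 2.03 to 30.6 ± 1.78 FPKM, -0.23, adjusted p = 0.014), the closest relative of HNRNPD, and HNRNPH1 (-0.16, adjusted p = 0.025). Both were at -0.07 and -0.01 with median-of-ratios scaling and no longer called, and the HNRNPH1 call also ended without vehicle 1, vehicle 2, WB436B 1 or WB436B 2 (adjusted p = 0.0651 to 0.0758). Not called were HNRNPUL2 (0.08), HNRNPUL1 (0.05), HNRNPLL (0.05), HNRNPA3 (0.04), HNRNPC (0.28, adjusted p = 0.157), HNRNPA1L2 and HNRNPH2. HNRNPC, which binds uridine tracts, was 43.9, 39.75 and 62.5 FPKM under vehicle and 61.9, 61.5 and 52.2 FPKM under WB436B, and without vehicle 3 its fold change was 0.47 (adjusted p = 0.00823).

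Among the SR genes, SRSF7 moved furthest. This protein has a zinc knuckle beside its RNA recognition motif and, like SRSF3, can recruit the mRNA export receptor NXF1. SRSF7 was 12.05, 15.3 and 14.9 FPKM under vehicle and 35.0, 28.3 and 34.3 FPKM under WB436B, 231% of the vehicle mean (1.15, SE 0.162, adjusted p = 0.00027). SRSF3 was 26.6, 27.0 and 29.3 FPKM and then 40.7, 39.1 and 40.6 FPKM (0.52, adjusted p = 3.84e-05). All treated libraries of both genes lay above all vehicle libraries. SRSF1, the prototype of the family, rose from 13.9 ± 0.408 to 20.1 ± 3.49 FPKM (0.49, adjusted p = 0.00658), and SRSF2, a component of nuclear speckles, from 16.4 ± 1.08 to 26.45 ± 7.68 FPKM (0.62, adjusted p = 0.013).

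SRSF11 went the other way, from 19.95, 20.8 and 20.4 FPKM under vehicle to 15.8, 14.7 and 14.7 FPKM (-0.41, SE 0.0504, adjusted p = 0.000115). SRSF5 was 30.0, 29.3 and 30.4 FPKM and then 24.1, 22.95 and 23.1 FPKM (-0.34, adjusted p = 0.000172). SRSF10, which acts as a splicing repressor when dephosphorylated, fell from 8.82 ± 0.384 to 6.84 ± 0.503 FPKM (-0.33, adjusted p = 0.00115). These 3 calls held with median-of-ratios and with quantile scaling. SRSF9 (0.21), SRSF4 (0.02), SRSF8 (-0.08), a close relative of SRSF2, and SRSF6 (-0.14) were not called.

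Some annotated exons overlap those of other genes, and strandedness is not given in the sources used here. AC015813.2 covers 56.6% of the exon bases of SRSF1, MFSD11 36.7% of those of SRSF2 and GATC 46.2% of those of SRSF9. Under vehicle and under WB436B these 3 rows averaged 1.24 and 0.865 FPKM, 2.25 and 1.42 FPKM, and 9.01 and 13.5 FPKM. HNRNPUL2 shares 44.15% with the readthrough model HNRNPUL2-BSCL2, which was at most 1.503 FPKM, and HNRNPU 15.6% with COX20, at most 3.31 FPKM.

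**Figure D3:**
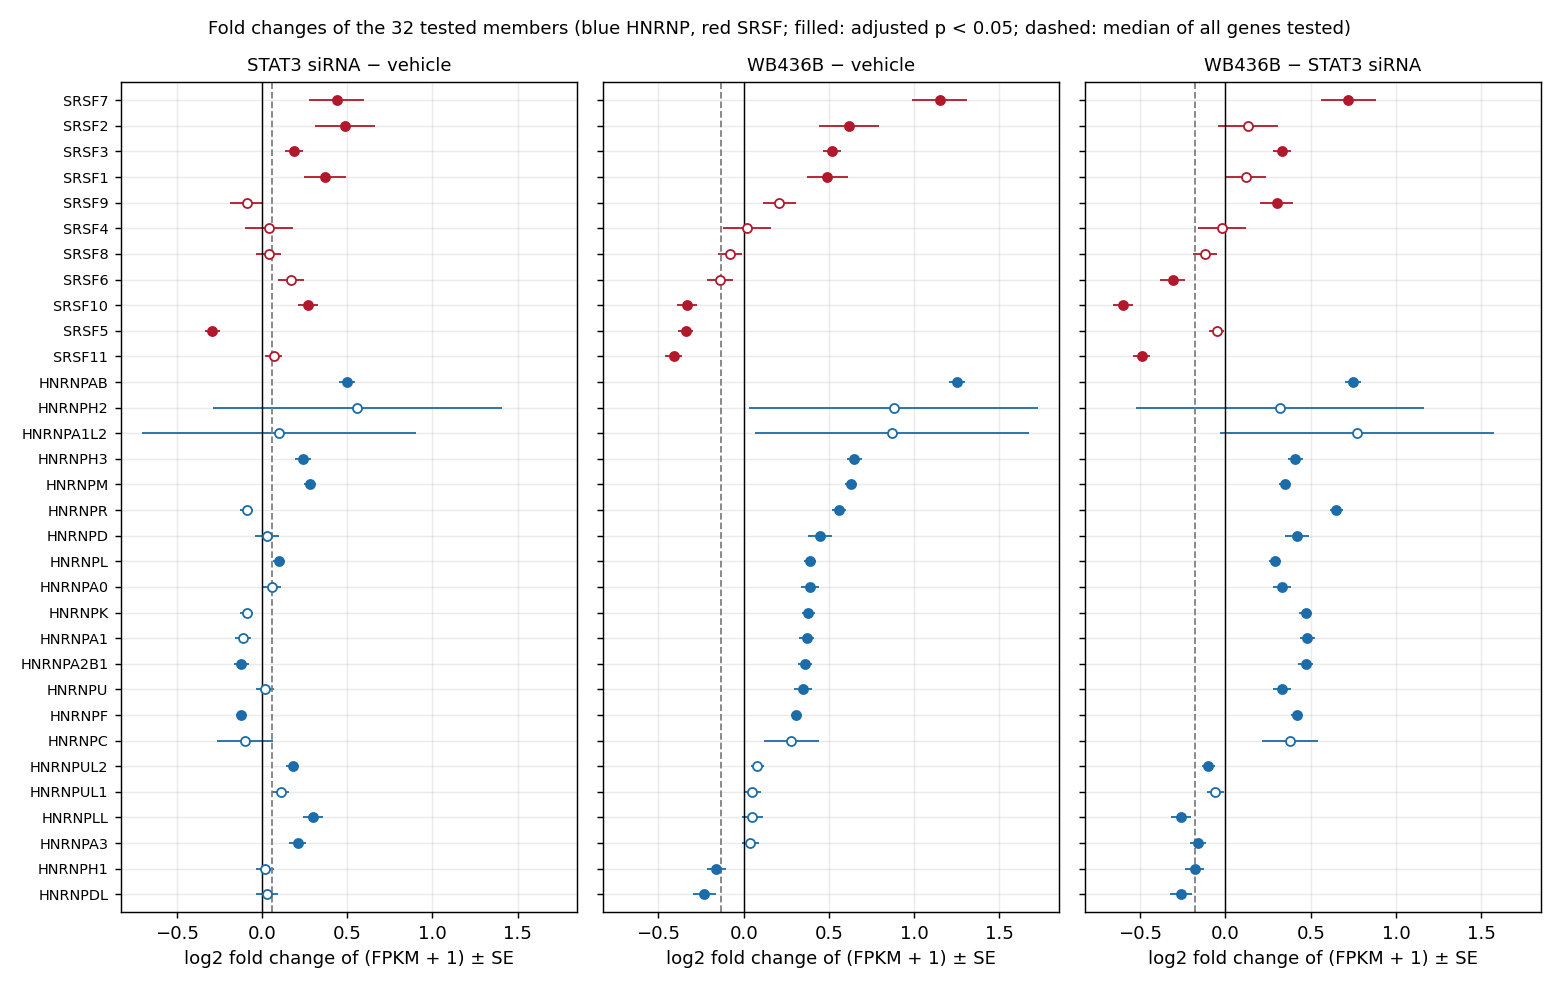
Log2 fold change of (FPKM + 1) with its standard error for the 32 tested members in the 3 comparisons, SRSF in red and HNRNP in blue, filled where adjusted p was below 0.05, with a dashed line at the median of all tested genes. In the middle panel most HNRNP members sit right of 0 (median 0.37), while SRSF members spread from -0.41 to 1.15.

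After STAT3 siRNA fewer members were called than under WB436B (15 against 21 of 32), as were fewer of all tested genes (52.1% against 65.9%). The sizes were not compared by a test. HNRNPAB, HNRNPM, HNRNPH3 and HNRNPLL rose and SRSF5 fell, while the 3 most abundant members, HNRNPA1, HNRNPA2B1 and HNRNPK, stood at 92.3%, 92.3% and 93.6% of vehicle. In counts, 7 of 21 HNRNP members rose and 2 fell (33.3% and 9.52%), and 5 of 11 SRSF members rose and 1 fell (45.5% and 9.09%). Over all tested genes 52.1% were called, 29.8% higher and 22.3% lower. Medians were 0.06 for HNRNP, 0.17 for SRSF and 0.06 for all tested genes, so the HNRNP median equalled that of all genes. Groups did not overlap for 60.5% of all tested genes. The SRSF count upward was 1 without vehicle 1, vehicle 2, siRNA 1 or siRNA 3, 2 without vehicle 3, 3 without WB436B 1, 2 with no filter and 1 with median-of-ratios scaling. That scaling also gave 5 of 21 HNRNP members higher and 5 lower, with 24.3% of all tested genes higher and 25.7% lower. It moved the upward share of all calls from 57.2% to 48.6%. The HNRNP count downward was 0 without siRNA 1 and with quantile normalization, 3 without siRNA 3, and 1 without vehicle 2, vehicle 3, siRNA 2 or any WB436B library.

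HNRNPAB was 113, 110 and 113 FPKM after the siRNA, all above its vehicle libraries given above (0.50, SE 0.0460, adjusted p = 4.61e-05). HNRNPM held 35.85, 37.6 and 37.4 FPKM (0.28, adjusted p = 0.000255), again above every vehicle library. For HNRNPH3 the siRNA libraries held 35.1, 32.6 and 33.1 FPKM (0.24, adjusted p = 0.00218). HNRNPLL, known for repressing CD45 exons in lymphocytes, was 3.985, 4.54 and 4.09 FPKM under vehicle and 5.55, 5.69 and 5.04 FPKM after the siRNA (0.30, adjusted p = 0.00317). HNRNPA3 (0.21), HNRNPUL2 (0.18) and HNRNPL (0.10, adjusted p = 0.0478) were the other HNRNP members called higher. HNRNPF (-0.12, adjusted p = 0.0196) and HNRNPA2B1 (-0.12, adjusted p = 0.0492) were called lower. The calls of HNRNPL and HNRNPA2B1 were lost with a replicate block (adjusted p = 0.0899 and 0.0896). They were also lost on leaving out any 1 library, except siRNA 3 for HNRNPA2B1, and that of HNRNPF was lost without vehicle 2 or siRNA 1 (adjusted p = 0.0711 and 0.0653). Median-of-ratios scaling ended the calls of HNRNPA3 (0.13, adjusted p = 0.0522) and HNRNPL (0.03, adjusted p = 0.569). Quantile normalization ended those of HNRNPF (adjusted p = 0.092) and HNRNPA2B1 (adjusted p = 0.0779). HNRNPA1 stood at 92.3% of vehicle (-0.11, adjusted p = 0.0614), and without vehicle 1 the fold change was -0.16 (adjusted p = 0.0122).

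SRSF5 was the SR gene with the smallest p after the siRNA, at 23.3, 24.2 and 25.5 FPKM, all below its vehicle libraries (-0.29, SE 0.0445, adjusted p = 0.000795). SRSF10 was 8.86, 9.19 and 8.42 FPKM under vehicle and 10.9, 10.5 and 11.2 FPKM after the siRNA (0.27, adjusted p = 0.00428). These were the 2 SRSF calls that held with median-of-ratios scaling. SRSF3 held 32.8, 29.8 and 32.6 FPKM (0.19, adjusted p = 0.0153) and SRSF1 14.1, 13.45 and 14.2 FPKM under vehicle and 20.65, 16.3 and 18.2 FPKM after the siRNA (0.37, adjusted p = 0.0305). Both genes had every siRNA library above every vehicle library, yet neither call was stable. That of SRSF1 ended with no filter (adjusted p = 0.0774) and without any 1 vehicle library, siRNA 1 or siRNA 3 (adjusted p = 0.059 to 0.101). That of SRSF3 ended without vehicle 1, vehicle 2, siRNA 1 or siRNA 3 (adjusted p = 0.0509 to 0.0547). SRSF2 (0.49, adjusted p = 0.0452) and SRSF7 (0.44, adjusted p = 0.0495) passed the threshold narrowly, and the siRNA libraries of SRSF7, at 20.8, 14.9 and 23.2 FPKM, overlapped those of vehicle. SRSF6 (0.17), SRSF11 (0.07), SRSF4 (0.04), SRSF8 (0.04) and SRSF9 (-0.09) were not called, and neither were HNRNPUL1 (0.11), HNRNPA0 (0.06), HNRNPD (0.03), HNRNPDL (0.03), HNRNPH1 (0.02), HNRNPU (0.02), HNRNPK (-0.09), HNRNPR (-0.09) and HNRNPC (-0.10).

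WB436B was also compared with the siRNA directly, which tests the difference between the effects of both treatments, whose comparisons with vehicle share their control libraries. Here 12 of 21 HNRNP members were higher under WB436B and 5 lower (57.1% and 23.8%), and 3 of 11 SRSF members were higher and 3 lower (27.3% each), against 20.0% and 44.1% of all tested genes (64.1% called in all). Groups did not overlap for 70.2% of tested genes. HNRNPR was 25.2, 25.7 and 27.2 FPKM after the siRNA, below vehicle, without a call, and had the smallest p against WB436B (0.65, SE 0.0393, adjusted p = 2.77e-06). HNRNPAB differed by 0.75 (adjusted p = 2.93e-06). HNRNPF was 67.7, 68.7 and 69.4 FPKM after the siRNA and 91.0, 93.8 and 92.2 FPKM under WB436B, with vehicle at 74.2, 76.0 and 73.15 FPKM in between (0.42, adjusted p = 1.26e-05). HNRNPK showed the same order, with 117.6, 111.1 and 113.3 FPKM after the siRNA, 118.5, 121.2 and 125.6 FPKM under vehicle and 157.6, 157.5 and 160.9 FPKM under WB436B (0.47, adjusted p = 1.43e-05). The siRNA libraries of HNRNPK lay below those of vehicle without a call, and the WB436B libraries above both.

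SRSF10 was the SRSF member called in opposite directions in the comparisons with vehicle, with 6.53, 6.57 and 7.42 FPKM under WB436B and a difference of -0.60 from the siRNA (SE 0.0582, adjusted p = 3.5e-05). HNRNPA2B1 and HNRNPF were also called in opposite directions there, lower after the siRNA and higher under the compound. SRSF11 was 22.2, 20.2 and 22.1 FPKM after the siRNA and differed by -0.49 (adjusted p = 5.23e-05). SRSF7 (0.72, adjusted p = 0.00437), SRSF3 (0.33, adjusted p = 0.000677) and SRSF9 (0.30, adjusted p = 0.0227) were higher under WB436B than after the siRNA, and SRSF6 was lower (-0.31, adjusted p = 0.00637). The SRSF9 call ended without siRNA 1, WB436B 1 or WB436B 2 (adjusted p = 0.0561 to 0.0782), with no filter (adjusted p = 0.0553) and with quantile normalization (0.17, adjusted p = 0.134), and that of SRSF6 with median-of-ratios scaling (-0.08). For SRSF5 the difference was -0.05 (SE 0.0445, adjusted p = 0.311), and its sign and call changed with the scaling, being -0.18 after quantile normalization (adjusted p = 0.0078) and 0.17 after median-of-ratios scaling (adjusted p = 0.0102). The 5 HNRNP members called lower, HNRNPDL and HNRNPLL (-0.26 each), HNRNPH1 (-0.18), HNRNPA3 (-0.16) and HNRNPUL2 (-0.10), lay around the median of all genes (-0.18). That count was 3 without siRNA 1, siRNA 3 or any 1 of the WB436B libraries and 0 with median-of-ratios scaling. This scaling gave 15 HNRNP members higher, with 31.5% of all tested genes higher and 30.7% lower. It moved the upward share of all calls from 31.2% to 50.65%. HNRNPUL2 was then called in the other direction (0.13, adjusted p = 0.0249). Quantile normalization gave 11 HNRNP members higher and 5 lower, against 28.1% of all tested genes in each direction. With the filter of 5 FPKM, 12 HNRNP members were higher and 5 lower, against 29.05% and 36.7% of the genes that passed it.

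Summed levels show the family balance by library. The 25 HNRNP members summed to 1217, 1156 and 1264 FPKM under vehicle, 1247, 1213 and 1258 FPKM after the siRNA and 1588, 1614 and 1562 FPKM under WB436B. The sum of vehicle 2 holds only 5.48 FPKM of HNRNPH2 and leaves out the 43.4 FPKM of its readthrough row. The WB436B sums lay above all others, and those of vehicle and siRNA overlapped. The 12 SRSF members summed to 219, 221 and 230.0 FPKM, 253, 227 and 261 FPKM, and 268, 242 and 261 FPKM in the same order. The SRSF sums of WB436B lay above those of vehicle and overlapped those of the siRNA. HNRNP over SRSF sums gave 5.43 ± 0.165 under vehicle, 5.03 ± 0.280 after the siRNA and 6.20 ± 0.415 under WB436B (SD, n = 3). The lowest vehicle ratio, 5.24, was that of vehicle 2. Both families together made up 0.4965 ± 0.02345%, 0.534 ± 0.0107% and 0.671 ± 0.00619% of all FPKM.

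The ratio of HNRNPA1 to SRSF1, a textbook pair of antagonists in splice site choice, was 14.8, 17.1 and 16.05 under vehicle, 10.0, 12.4 and 11.3 after the siRNA, and 11.95, 17.1 and 14.4 under WB436B. The siRNA libraries lay below those of vehicle, and the WB436B libraries overlapped both groups. It is a ratio of transcript levels, not of protein.

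**Figure D4:**
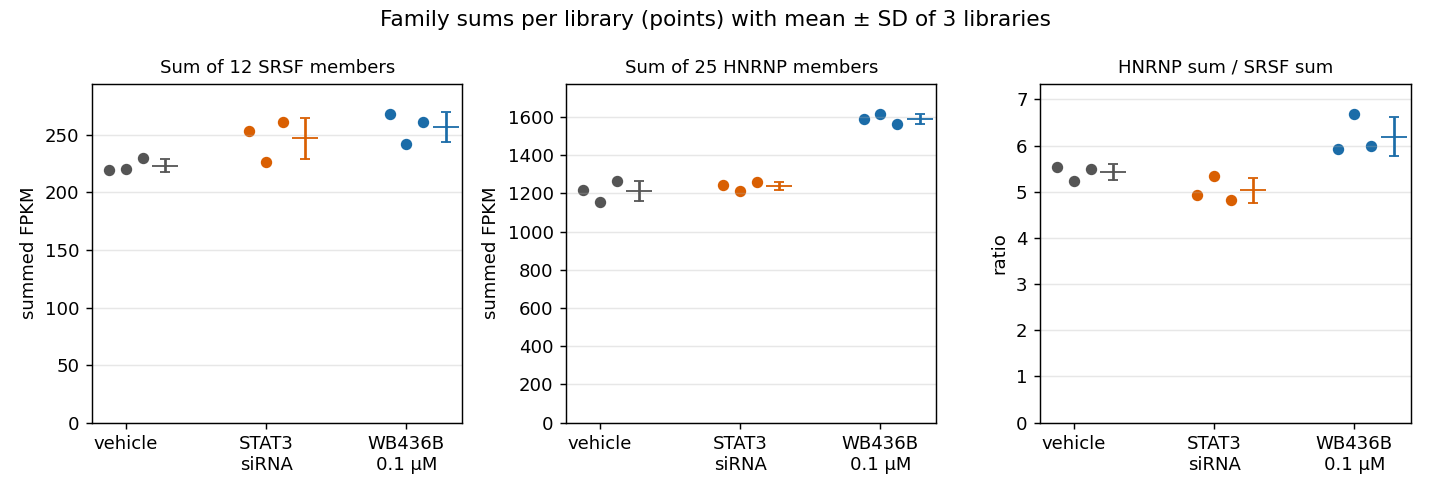
Summed FPKM of the 12 SRSF and the 25 HNRNP members and the ratio of both sums in each library, with mean ± SD of 3 libraries per group; the axes start at 0. The HNRNP sums of WB436B (1562 to 1614 FPKM) lie above those of the other 6 libraries (1156 to 1264 FPKM).

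Other parts of the splicing machinery were read from 6 gene lists, by counts of called genes in the limma fit, to be read against 24.9% higher and 41.1% lower of all tested genes under WB436B. Core spliceosome genes were mostly higher under WB436B. Of 23 genes for Sm proteins, U1 and U2 particles and U2AF, 18 rose and 0 fell (median 0.52), with SF3A3, a subunit of the U2 particle, at 0.80 (adjusted p = 7.16e-07) and the polypyrimidine tract binder U2AF2 at 0.81. Of 26 tri-snRNP, LSM and PRP19 complex genes, 21 rose and 2 fell (median 0.32), with the ubiquitin ligase PRPF19 at 0.93 and PRPF4, of the U4/U6 particle, at 0.98. In the exon junction and nonsense-mediated decay list 10 of 14 rose and 0 fell (median 0.24), including RBM8A (0.80) and EIF4A3 (0.53), both of the junction core. Of 7 hnRNP proteins with other names, 5 rose and 0 fell (median 0.28), with SYNCRIP (hnRNP Q) at 0.95. In these 3 lists with 0 lower, 0 were also lower at an unadjusted p below 0.05. Quantile normalization gave 17 higher and 2 lower in the Sm, U1, U2 and U2AF list.

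Regulators were called in both directions, as were genes at large. Of 12 SR-related factors and SR kinases, 4 rose and 3 fell under WB436B (median 0.03), with TRA2B, a sequence-specific activator, at 0.79 and the SR kinase gene SRPK1 at 0.61. The 3 that fell, named after their values were seen, were the SR kinase genes CLK2 (-0.80, adjusted p = 2.75e-05) and CLK4 (-0.23) and the speckle protein gene SRRM2 (-0.30). CLK2 averaged 8.60 FPKM under vehicle, 12.2 FPKM after the siRNA, where it rose (0.46, adjusted p = 0.00126), and 4.52 FPKM under WB436B. Of 20 rows of other alternative splicing regulators (19 symbols), 5 rose and 8 fell (median 0.03), or 25% and 40%, close to the shares of all genes. With median-of-ratios scaling these counts were 8 and 1, and 9 and 7, against 33.1% higher and 33.2% lower of all tested genes. SFPQ, a paraspeckle protein, rose by 0.82, and ESRP1, an epithelial splicing regulator, fell from a mean of 33.4 to 18.7 FPKM (-0.81, adjusted p = 2.36e-06).

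After the siRNA, where 29.8% of all tested genes were higher and 22.3% lower with a median of 0.06, the same lists gave 13 higher and 2 lower of 23 (Sm, U1, U2 and U2AF, median 0.29), 15 and 2 of 26 (tri-snRNP, LSM and PRP19, 0.20) and 9 and 0 of 14 (junction and decay, 0.36), the last with 0 lower also at an unadjusted p below 0.05. The hnRNP proteins with other names gave 4 and 1 of 7 (0.13), the SR-related factors and kinases 6 and 1 of 12 (0.13), and the other regulators 6 and 3 of 20 (0.15), which became 3 and 4 with median-of-ratios scaling. SF3B5, of the U2 particle, rose by 0.81, PRPF19 by 0.70, TRA2B by 0.55, SNRNP40 of the U5 particle by 0.53 and the decay factor SMG5 by 0.53. Further called genes with the smallest p in their list were TRA2A (0.39), ELAVL1 (0.38), SF3A1 (0.36), RBM8A (0.33) and PTBP1 (0.28). MBNL2, a muscleblind splicing factor, fell by 0.43 on the log2 scale.

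**Figure D5:**
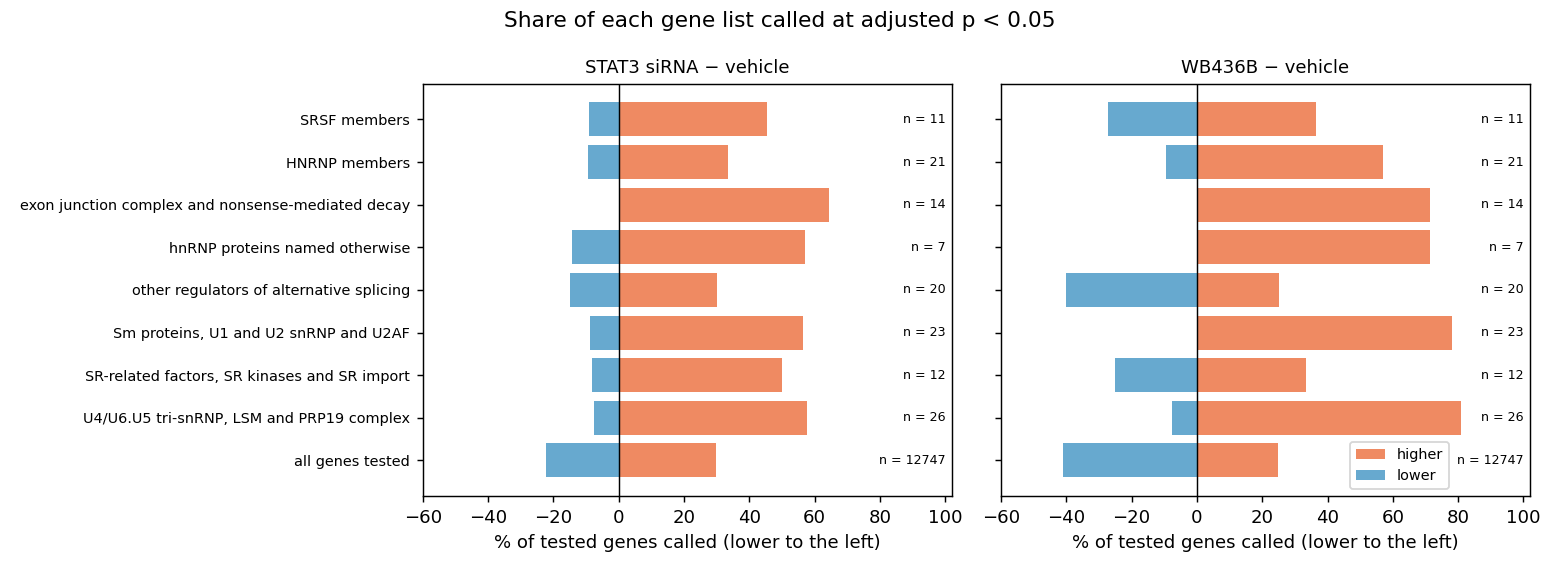
Share of the tested genes of each list called higher (orange, right) or lower (blue, left) against vehicle, for STAT3 siRNA and WB436B, with the number tested at the right edge. Under WB436B 57.1% of HNRNP and 36.4% of SRSF members were higher, against 24.9% of all tested genes.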

How the data were processed

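RNA-seq was measured in 9 libraries of BxPC3 cells, 3 per group, and RNA was extracted with a column kit, per the labels' protocols. The authors deposited 1 table of FPKM values per Ensembl gene, with 3 empty columns that were not used. Bowtie 0.12.2 and the build mm8, a mouse build, are named in the submitters' processing notes, although the Ensembl identifiers are human. Which build underlies the values is therefore unknown. The program that made the FPKM values, its annotation and its strand setting were not found in the labels. Count models do not apply to FPKM, and a change in abundant genes shifts all others.

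Exon overlap came from GENCODE 29, which held 96.5% of the identifiers and all members. Depth was estimated from the worth of 1 fragment in single-transcript genes longer than 2000 bases. Genes reaching 1 FPKM in 3 or more of the 9 libraries were analysed as log2(FPKM + 1) with limma 3.58.1 (R 4.3.3, variance trend, 6 residual degrees of freedom), all 9 libraries in a single fit with a mean per group. Tests were two-sided with Benjamini-Hochberg adjustment over all tested genes. The script was tested on simulated data.

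Libraries with the same replicate number did not deviate together (correlations of deviations -0.08 to 0.16), so no block was used. Replicates are labelled biological, but nothing says that they were separate cultures, so the p-values reflect only library-to-library spread, which may be technical. All members are named. Values per library are given for up to 4 called members per family and comparison with the smallest p, and for members discussed for their spread. Up to 2 called genes per list and comparison with vehicle are named, and 1 that the rule selects is not reported here. Members, lists and motifs were chosen with earlier results of these data known. Alternatives were another pseudocount, 2 filters, 2 scalings, fits of the compared groups, a replicate block, each library left out and, added after seeing the data, HNRNPH2 summed with its readthrough model. Promoter sequences were RefSeq's, on GRCh38.p14.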

Additional observations from a re-analysis of the deposited data

How the results depend on the processing

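Estimates rest on 3 libraries per group, and depth limits the members listed near 0. The count of HNRNP members higher under WB436B was 12 to 17 against vehicle and 11 to 15 against the siRNA over the alternatives run. Against vehicle, the count of HNRNP members lower after the siRNA, 2 as reported, was 1 with no filter, 5 with median-of-ratios scaling, 0 with quantile normalization, 1 in a fit of only the groups compared and 1 with a replicate block, and 0 to 3 on leaving out a library. The count of SRSF members higher after the siRNA, 5 as reported, was 2 with no filter and 1 with median-of-ratios scaling, and 1 to 5 on leaving out a library. Median-of-ratios scaling gave 0 HNRNP members lower under WB436B against vehicle (2 as reported, 1 to 2 on leaving out a library) and 0 against the siRNA (5 as reported, 3 to 5), and 5 SRSF members higher against the siRNA (3 as reported). Other alternatives left the counts within 1.5 times.

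Signs that turned belonged mostly to members that were not called. After the siRNA, median-of-ratios scaling gave HNRNPA0 -0.01, HNRNPD -0.04, HNRNPDL -0.04, HNRNPH1 -0.05, HNRNPU -0.05, SRSF4 -0.03 and SRSF8 -0.02. Under WB436B against vehicle it gave SRSF6 0.02 and SRSF8 0.07, and quantile normalization gave HNRNPA3 -0.10, HNRNPUL1 -0.08 and HNRNPUL2 -0.03. Against the siRNA median-of-ratios scaling gave HNRNPA3 0.07, HNRNPH1 0.04, HNRNPUL1 0.17, HNRNPUL2 0.13, SRSF4 0.19, SRSF5 0.17 and SRSF8 0.09. Of these HNRNPUL2, called lower as reported, was called higher (adjusted p = 0.0249), and HNRNPUL1 and SRSF5, not called as reported, were called higher (adjusted p = 0.0154 and 0.0102). HNRNPH2 summed with its readthrough model, an alternative chosen after seeing the data, was -0.41 after the siRNA and -0.09 under WB436B. On leaving out a library the siRNA values ran from -0.62 to 0.71 for HNRNPA1L2, -0.23 to 0.09 for HNRNPC, -0.02 to 0.10 for HNRNPD, -0.04 to 0.06 for HNRNPH1, -0.66 to 1.18 for HNRNPH2, -0.02 to 0.06 for HNRNPU, -0.12 to 0.13 for SRSF4, -0.01 to 0.10 for SRSF8 and -0.14 to 0.01 for SRSF9. Under WB436B they ran from -0.34 to 1.5 for HNRNPH2 and -0.06 to 0.12 for SRSF4, and against the siRNA from -0.07 to 0.34 for SRSF2 and -0.12 to 0.14 for SRSF4. Apart from the effects given by the settings themselves, the cause was not tested.

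With the replicate number as a block, the calls of HNRNPA2B1 (adjusted p = 0.0896) and HNRNPL (adjusted p = 0.0899) after the siRNA and of HNRNPUL2 against the siRNA (adjusted p = 0.0686) were lost, and no other member's call changed. Libraries share only a number here, so this is no measure of pairing.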
